A study of Mus musculus with 6 samples.

Results

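Smooth muscle and pericyte markers are genes whose products mark the mural cells, the contractile and supporting cells that wrap blood vessels. 9 such genes, chosen by name with earlier results of these data known, were followed through mid-gestation mouse hearts (E12.5). They are the contractile and cytoskeletal genes Myh11, Cnn1, Tagln and Smtn, the transcriptional co-activator gene Myocd, and the pericyte genes Pdgfrb, Rgs5, Cspg4 and Higd1b. Each of the 9 was read by 1 transcript cluster, a set of probes along the transcript, among 28767 clusters. Of these clusters, 21776 carried a single gene symbol and stood for 19933 named genes. The groups were 3 heart samples labelled knockout for β1 integrin and 3 labelled wild type, 1 array each. β1 integrin, encoded by Itgb1, is the β chain of most receptors for collagen, laminin and fibronectin. The labels give no strain, no Cre line or cell type in which the gene was deleted, and no statement whether a sample was a single heart or a pool. For short, each sample is called a heart here, whether single or pooled.

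Smooth muscle cells contract through smooth muscle myosin sliding on actin, and the serum response factor SRF with its co-activator myocardin switches on many of their genes by binding CArG boxes. Pericytes sit on capillaries, inside the vessel's basement membrane, and are drawn there by PDGF-B, which endothelial cells release and the receptor PDGFRβ on mural cells binds. In the embryonic heart, mural cells arise mainly from the epicardium and, in the outflow vessels, from the neural crest, while the young heart muscle itself transiently makes several smooth muscle proteins, transgelin and smooth muscle α-actin among them. These arrays measured whole hearts, in which fewer cells of a type and less RNA per cell cannot be told apart.

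Most of the 9 markers did not separate the groups. By their means, 6 of the 9 were higher in the knockout hearts and 3 were lower, beside 46.6% of all clusters higher and 53.4% lower. For Higd1b all knockout hearts lay above all wild-type hearts, for Cnn1 all lay below them, and for the other 7 the groups overlapped. The count of 2 of 9 without overlap stands beside 12.6% of all clusters. With limma's moderated test and Benjamini-Hochberg adjustment over all clusters, 0 of the 9 passed a threshold of 0.05, as did 0% of all clusters, and the smallest adjusted p of any cluster was 0.601. At an unadjusted p under 0.05, 2 of the 9 (Higd1b and Cnn1) and 5.93% of all clusters were found. Without knockout replicate 1, 6 of the 9 were higher by their mean and 3 (Cnn1, Smtn and Higd1b) were free of overlap, beside 20.5% of all clusters, and 1 (Higd1b) had an unadjusted p under 0.05, beside 5.62%. Without knockout replicate 3, again 6 were higher by their mean and 2 (Cnn1 and Higd1b) were free of overlap, beside 28.1% of all clusters, and the same 2 had an unadjusted p under 0.05, beside 9.43%. These 2 ways of counting were chosen after seeing the data. No difference given below passed the adjusted threshold.

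**Figure D1:**
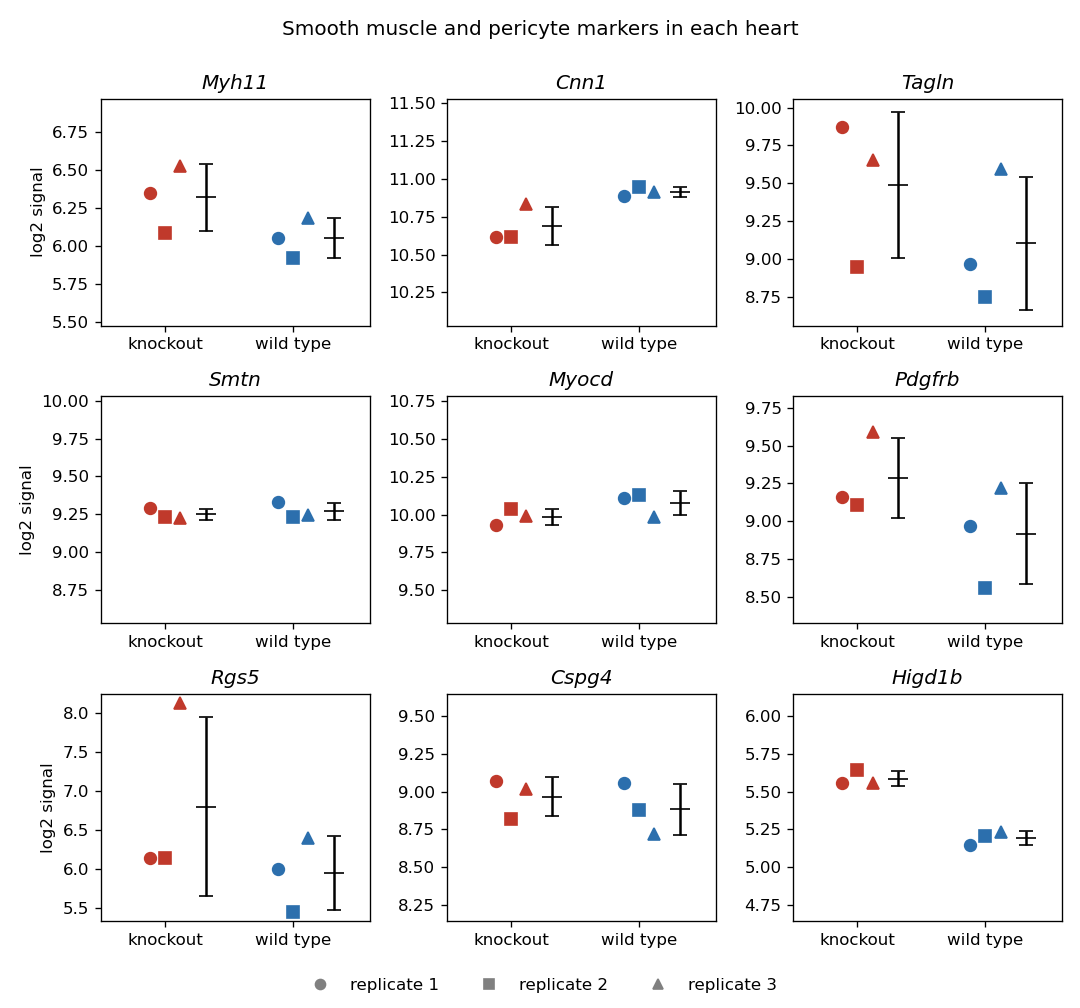
Log2 signal of the 9 markers in each heart, knockout (red) left of wild type (blue), with the replicate number as the symbol and the mean with its SD (n = 3) to the right of each group. All panels have the same height in log2 units except that of Rgs5, which covers more. Only in the panels of Cnn1 and Higd1b do the groups not overlap, and in that of Rgs5 knockout replicate 3 stands at 8.12, above the other 5 hearts.

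The hearts also differed in the targeted gene, in markers of other cell types and in sex-linked genes, and the part of these in the 9 markers was not tested. Itgb1 itself was at 11.53, 11.42 and 11.65 in knockout replicates 1 to 3, below the wild-type hearts at 11.76, 11.80 and 11.78, and the positions of its probes relative to the deleted part are not given. All 10 cardiomyocyte markers listed were measured, and their mean signal lay between 12.78 and 12.87 in knockout and between 12.84 and 12.88 in wild-type hearts. Knockout replicate 1 stood apart in 9 erythroid markers, with a mean of 9.86 against 8.38 and 8.53 in the other knockout hearts and 8.27 to 8.75 in the wild-type hearts. It also stood apart in 6 genes of the response to low oxygen, at 10.80 against 9.51 and 9.36 in the other knockout hearts and 9.01 to 9.10 in the wild-type hearts. The 6 fetal liver markers had a mean of 5.94 to 6.43 in the knockout and 5.46 to 5.72 in the wild-type hearts, with Alb and Afp farthest apart. Of the sex-linked genes, the Y-linked Kdm5d was near 8 in all hearts but wild-type replicate 2, where it was 5.96. Xist was at 8.28, 5.71 and 5.01 in the knockout and at 8.37, 11.26 and 4.86 in the wild-type hearts, so that replicate 1 of each group held both kinds of signal.

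Among the contractile genes, Cnn1 had the lowest p. It encodes calponin 1, an actin-binding protein that inhibits the myosin ATPase and marks differentiated smooth muscle. The cluster of Cnn1 was brighter than 95.4% of all clusters, and that of Myh11 than 42.8%. Arrays of whole hearts do not show which cells gave the signal of Cnn1. This signal was 10.62, 10.62 and 10.83 in the knockout hearts, against 10.89, 10.95 and 10.91 in the wild-type hearts. Knockout replicates 1 and 2 were low, knockout replicate 3 lay just under the wild-type hearts, and the wild-type hearts were close to each other. The means were 10.69 ± 0.13 in knockout and 10.92 ± 0.03 in wild-type hearts (SD, n = 3 each). The difference of -0.23 ± 0.09 (log2, SE) left 85.5% of the wild-type signal (95% interval of the difference -0.44 to -0.01, limma, adjusted p = 0.797). An exact permutation test of the 6 values (two-sided) gave p = 0.1, the lower limit for groups of 3. The difference lay between -0.30 and -0.19 with any 1 heart left out, and the unadjusted p stayed under 0.05 only without knockout replicate 3.

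The promoter of Cnn1 is shown with those of Rgs5, the marker with the largest difference, and of Acta2, the gene of smooth muscle α-actin, whose promoter is a textbook case of SRF binding. Each is the 250 bases before the gene's start in RefSeq, build GRCm38.p6, written 5′ to 3′ along the gene. Capitals mark 10-base windows that match the CArG box with at most 1 departure, a motif that reads the same on both strands.
Cnn1, chr9:22099003-22099252, plus strand: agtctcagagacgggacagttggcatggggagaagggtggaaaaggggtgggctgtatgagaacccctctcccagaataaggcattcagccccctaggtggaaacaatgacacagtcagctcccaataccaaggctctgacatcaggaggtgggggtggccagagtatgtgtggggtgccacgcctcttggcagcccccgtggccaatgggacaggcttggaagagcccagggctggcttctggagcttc
Rgs5, chr1:169655251-169655500, plus strand: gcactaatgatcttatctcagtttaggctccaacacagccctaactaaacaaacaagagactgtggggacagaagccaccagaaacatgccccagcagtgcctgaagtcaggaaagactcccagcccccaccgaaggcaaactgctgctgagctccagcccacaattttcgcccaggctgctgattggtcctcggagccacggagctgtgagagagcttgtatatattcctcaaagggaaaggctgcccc
Acta2, chr19:34255374-34255623, minus strand: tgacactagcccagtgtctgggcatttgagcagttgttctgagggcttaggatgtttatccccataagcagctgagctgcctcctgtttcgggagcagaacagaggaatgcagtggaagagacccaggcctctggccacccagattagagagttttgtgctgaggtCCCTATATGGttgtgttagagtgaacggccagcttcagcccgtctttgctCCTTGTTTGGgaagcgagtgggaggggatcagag
The window of Acta2 held 2 such matches, CCCTATATGG and CCTTGTTTGG, which begin 84 and 34 bases before the start. The windows of Cnn1, Rgs5 and Smtn held 0, and that of Cspg4 held 2 that overlap each other. A match with at most 1 departure was present in 18.6% of 32851 RefSeq promoter windows of that length, and a match with none in 1.47% and in 0 of these 5. 4 of the 9 markers, Cnn1, Smtn, Rgs5 and Cspg4, had an entry in the promoter table. Sites farther upstream or within the genes were not searched, so a count of 0 holds for these 250 bases only.

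Myh11, which encodes the smooth muscle myosin heavy chain and is the most specific of the contractile markers, had signals of 6.35, 6.08 and 6.53 in the knockout hearts and 6.05, 5.92 and 6.18 in the wild-type hearts. Knockout replicates 1 and 3 lay above all wild-type hearts, and knockout replicate 2 fell among them. The means were 6.32 ± 0.22 in knockout and 6.05 ± 0.13 in wild-type hearts (SD, n = 3 each), below the median cluster mean of 6.67. The difference was 0.27 ± 0.13 (log2, SE; 95% interval -0.04 to 0.57; limma, adjusted p = 0.797), and 0.17 without knockout replicate 3.

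Tagln, which encodes the actin-bundling protein transgelin, varied more between hearts of 1 group than between the groups. It was at 9.87, 8.95 and 9.65 in the knockout hearts and at 8.97, 8.75 and 9.59 in the wild-type hearts. Knockout replicates 1 and 3 and wild-type replicate 3 were high, and the other 3 hearts were low. The difference of 0.39 ± 0.28 (log2, SE; 95% interval -0.27 to 1.05; limma, adjusted p = 0.819) lay within the spread of either group, whose SD was 0.48 in knockout and 0.44 in wild-type hearts. It ranged from 0.20 without knockout replicate 1 to 0.66 without knockout replicate 2, with 0.21 and 0.63 without wild-type replicates 2 and 3. The SD of Tagln within groups was larger than that of 98.2% of all clusters.

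Smtn and Myocd were the steadiest of the smooth muscle genes. Smtn, which encodes the actin-associated protein smoothelin, was at 9.29, 9.23 and 9.22 in the knockout hearts and at 9.33, 9.23 and 9.24 in the wild-type hearts. Its difference of -0.02 ± 0.08 had a 95% interval from -0.21 to 0.17, which does not reach a 1.2-fold change in either direction. Myocd, the gene of myocardin, is active in the heart muscle as well as in smooth muscle. Its signal was 9.93, 10.04 and 9.99 in the knockout hearts and 10.11, 10.13 and 9.98 in the wild-type hearts, with wild-type replicate 3 among the knockout hearts. The difference was -0.09 ± 0.08 (log2, SE; 95% interval -0.29 to 0.11; limma, adjusted p = 0.855), and -0.14 without wild-type replicate 3. The 4 contractile genes thus had 2 positive and 2 negative differences, of which those of Cnn1 and Smtn were the negative ones.

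Higd1b had the lowest p of the 9 and the rank 42 among all 28767 clusters. It encodes a small mitochondrial protein of the HIG1 hypoxia-inducible domain family and is a marker of brain and lung pericytes. Its signal was 5.56, 5.64 and 5.55 in the knockout hearts and 5.15, 5.20 and 5.23 in the wild-type hearts. The hearts of each group lay within 0.09 of each other, and the gap between the groups was wider than either range. The means were 5.58 ± 0.05 in knockout and 5.19 ± 0.04 in wild-type hearts (SD, n = 3 each). The difference was 0.39 ± 0.08 (log2, SE), a 1.31-fold ratio (95% interval 0.20 to 0.58; limma, adjusted p = 0.797). The exact permutation test (two-sided) gave p = 0.1. With any 1 heart left out the difference lay between 0.36 and 0.41. The cluster was dim, brighter than only 28.7% of all clusters, and RMA compresses differences at that level. The means of the low oxygen and liver lists also separated the groups, and their part in this difference was not tested. So did, by a narrow gap, the mean of 20 other pericyte and mural cell genes, at 7.78 to 7.85 in knockout and 7.69 to 7.74 in wild-type hearts. Of these 20 genes 14 were higher and 6 lower by their mean, with 4 above and 2 below all wild-type hearts. The paralog Higd1a, a hypoxia-induced gene of the same family, was at 9.21, 8.17 and 8.54 in the knockout hearts and at 8.34, 8.32 and 8.26 in the wild-type hearts, with overlap.

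Pdgfrb, the receptor for PDGF-B, was at 9.16, 9.11 and 9.59 in the knockout hearts and at 8.97, 8.56 and 9.22 in the wild-type hearts. Knockout replicate 3 was the highest heart, wild-type replicate 2 the lowest, and wild-type replicate 3 lay among the knockout hearts. The difference was 0.37 ± 0.19 (log2, SE; 95% interval -0.08 to 0.82; limma, adjusted p = 0.797). Leaving out wild-type replicate 2 gave 0.19, and leaving out knockout replicate 3 gave 0.22.

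Rgs5, which encodes a regulator of G protein signalling and is among the best known pericyte markers, had the largest difference of the 9. Its signal was 6.14, 6.14 and 8.12 in the knockout hearts and 5.998, 5.452 and 6.396 in the wild-type hearts. Knockout replicate 3 stood alone, while knockout replicates 1 and 2 lay inside the wild-type range. The difference of 0.85 ± 0.52 (log2, SE; 95% interval -0.37 to 2.07; limma, adjusted p = 0.797) was 0.19 without knockout replicate 3. The within-group SD of Rgs5 was larger than that of 99.9% of all clusters. Rgs4, a related regulator and the protein-coding gene next to Rgs5 on chromosome 1, was also highest in knockout replicate 3. It was at 5.62, 5.54 and 6.55 in the knockout hearts and at 5.34, 5.48 and 5.68 in the wild-type hearts, a difference of 0.40, and of 0.08 without that heart. Rgs4 was singled out after its values were seen. The mean over the 6 hearts was 6.37 for Rgs5 and 5.70 for Rgs4, both below the median cluster mean of 6.67.

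Cspg4, which encodes the NG2 proteoglycan of pericytes and other immature cells, was at 9.07, 8.82 and 9.02 in the knockout hearts and at 9.06, 8.88 and 8.72 in the wild-type hearts. The hearts of both groups were mixed in order. The difference was 0.08 ± 0.12 (log2, SE; 95% interval -0.19 to 0.36; limma, adjusted p = 0.900), with values from 0.00 without wild-type replicate 3 to 0.17 without wild-type replicate 1, and 0.03 and 0.16 without knockout replicates 1 and 2. The 4 pericyte genes thus all had a positive difference, with 1 of them, Higd1b, free of overlap, beside 6.01% of all clusters with every knockout heart above every wild-type heart.

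**Figure D2:**
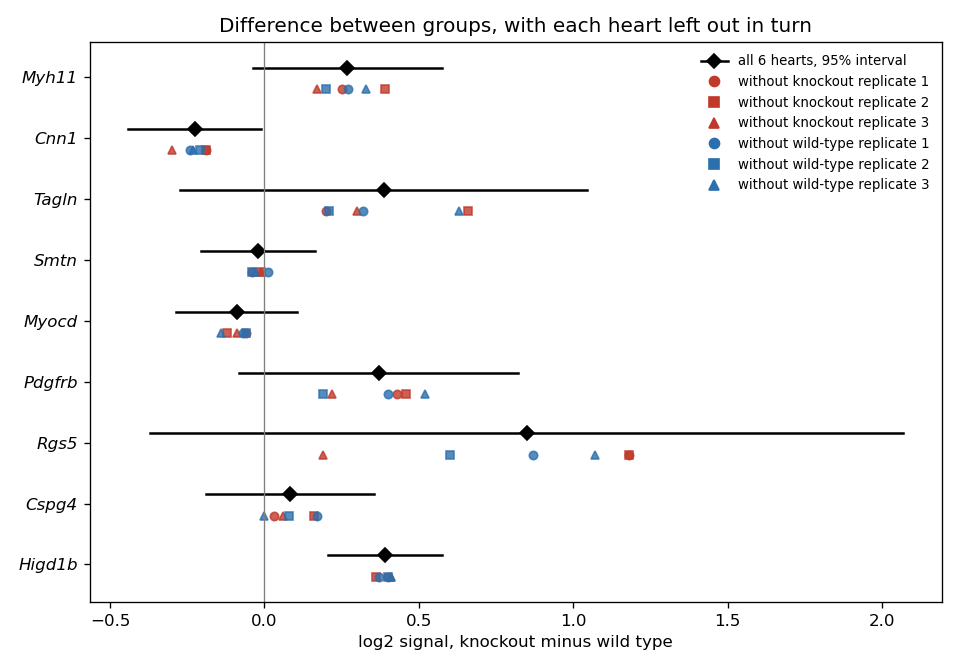
Knockout minus wild-type difference of each marker on the log2 scale, from all 6 hearts (black diamond, with limma's 95% interval) and with each heart left out in turn (coloured symbols, red for a knockout and blue for a wild-type heart). The symbols of Higd1b stay between 0.36 and 0.41, while those of Rgs5 run from 0.19 without knockout replicate 3 to 1.18.

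Myh11, Tagln, Pdgfrb and Rgs5, grouped here after their values were seen, shared features of their order from heart to heart. Wild-type replicate 2 was the lowest of the 6 hearts for all 4, and knockout replicate 3 the highest for Myh11, Pdgfrb and Rgs5. The mean of 8 markers of the cushion mesenchyme, the cells that build the valves, had a partly similar order. That mean was 8.44, 8.49 and 8.87 in the knockout hearts and 8.34, 8.09 and 8.88 in the wild-type hearts. Knockout replicate 3 and wild-type replicate 3 were thus high in it and wild-type replicate 2 low. Not every gene of the list shared this order, and knockout replicate 1, the highest heart for Tagln, was not high in the mean. Wild-type replicate 2 was also the lowest heart for genes outside the 4, among them Tagln2, Myh9, Notch3, Heyl, Pdgfb and Tgfb3. It was the highest heart for Cnn1 and Myocd. It was also the only heart low in the Y-linked Kdm5d (5.96), with Xist at 11.26. The part of the cushion tissue and of sex in the 4 differences was not tested. Higd1b, Cnn1, Smtn, Myocd and Cspg4 did not follow the order of the 4. The mean of the endothelial markers ran from 9.72 to 9.77 in knockout and from 9.74 to 9.85 in wild-type hearts. That of the epicardial markers ran from 8.44 to 8.64 in knockout and from 8.50 to 8.54 in wild-type hearts. Both means moved less, but single genes of these lists moved more than the means, with a span of up to 0.91 in the epicardial list.

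**Figure D3:**
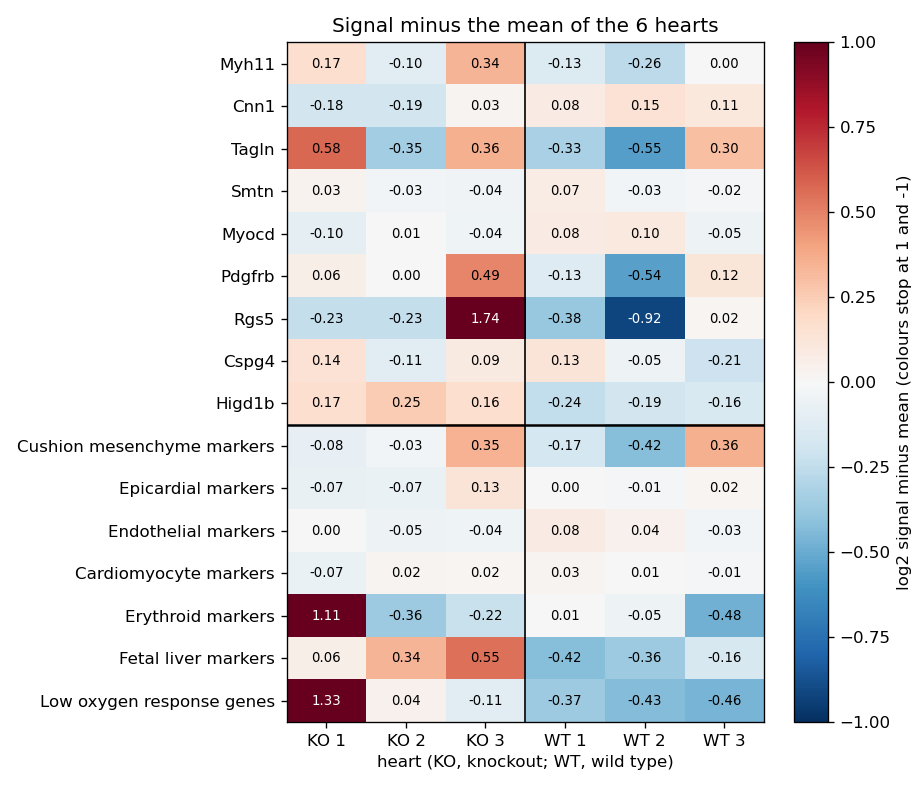
Log2 signal minus the mean of the 6 hearts, for the 9 markers (above the line) and for the mean of marker lists of other cell types and of low oxygen genes (below it), with knockout hearts left of wild-type hearts. Rgs5 stands at 1.74 in knockout replicate 3 and at -0.92 in wild-type replicate 2, and the cushion mesenchyme list is at 0.35 and -0.42 in the same hearts.

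The genes closest in pattern to each marker were found by the root mean square distance between values centred on each gene's mean over the 6 hearts, among 10845 genes at or above the median level. With so many genes and 6 points, close matches are easy to find, and the distances are a description. Closest to Pdgfrb were Rtn1 (0.04), Adamts8 (0.06) and the endothelial phosphatase gene Ptprb (0.06). Closest to Myh11 were Lhfpl2 (0.04), Rarres2 (0.05) and Pde5a (0.06), which encodes the cyclic GMP phosphodiesterase of smooth muscle. Closest to Cnn1 were Arrdc4 (0.03), Atrip (0.03) and Angpt1 (0.03), the gene of the TIE2 ligand angiopoietin 1. Higd1b was matched less closely, by Fxyd6 (0.07), Ptprj (0.08) and Naprt (0.09), for a root mean square of its own values of 0.20. For Tagln the closest were the Wnt receptor gene Fzd1 (0.16), Skil (0.17) and Specc1 (0.17). Rgs5 had no close match, the nearest being the crosslinking enzyme gene Lox (0.39), the cushion factor gene Sox9 (0.40) and Gpc6 (0.40), against a root mean square of 0.83 of its own values. The nearest gene was Abcc8 (0.01) for Smtn, Arhgap17 (0.01) for Myocd and Spata6 (0.04) for Cspg4.

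Other smooth muscle contractile genes did not lean to either side. Of 17 listed genes 16 were measured, 8 with a higher and 8 with a lower mean in the knockout, 0 passed the test, and their median difference was -0.01 on the log2 scale, as was that of all clusters. In the knockout 2 lay above and 1 below all wild-type hearts, beside 6.01% and 6.61% of all clusters. Cald1, which encodes the actin and calmodulin binding protein caldesmon, was higher in every knockout heart, at 9.73, 9.54 and 9.78 against 9.48, 9.48 and 9.35 in the wild-type hearts (0.25 ± 0.10, SE; limma, adjusted p = 0.797). Myl9, a regulatory light chain of smooth muscle myosin, differed by -0.18 ± 0.11, and by -0.09 without knockout replicate 1. The intermediate filament gene Des differed by -0.15 ± 0.09, and by -0.09 without wild-type replicate 1, and the myosin phosphatase subunit gene Ppp1r12b by -0.15 ± 0.10, and by -0.07 without knockout replicate 3. Acta2 was at 12.62, 12.70 and 12.90 in the knockout and at 12.89, 12.74 and 12.75 in the wild-type hearts, a difference of -0.05 ± 0.10 that was 0.01 without knockout replicate 1, -0.13 without knockout replicate 3 and 0.00 to -0.08 with a wild-type heart left out.

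Paralogs of the markers gave a further comparison within gene families. Of 14 measured paralogs 10 had a higher and 4 a lower mean in the knockout, 0 passed, and the median difference was 0.10. In the knockout 0 lay above and 1 below all wild-type hearts, beside 6.01% and 6.61% of all clusters. The neuronal transgelin gene Tagln3 was lower in every knockout heart (-0.27 ± 0.09, SE; limma, adjusted p = 0.797), at 7.45, 7.46 and 7.37 against 7.73, 7.57 and 7.79 in the wild-type hearts. The broadly expressed Tagln2 was higher by 0.35 ± 0.15 with overlap, and by 0.22 without wild-type replicate 2. Myh9, a nonmuscle myosin heavy chain gene, was higher by 0.26 ± 0.12 and Rgs16 by 0.40 ± 0.23, which were 0.16 and 0.11 without knockout replicate 1. The other calponin genes, Cnn2 and Cnn3, differed by 0.02 and -0.01, beside -0.23 for Cnn1. With 1 heart left out, Cnn2 ranged from -0.05 without knockout replicate 1 to 0.09 without knockout replicate 2, and Cnn3 from -0.08 without knockout replicate 3 to 0.03 without knockout replicate 1. Pdgfra, the second PDGF receptor gene and a mesenchymal marker, differed by 0.33 ± 0.33, by 0.05 when either knockout replicate 3 or wild-type replicate 2 was left out, and by 0.53 and 0.65 when knockout replicate 1 or wild-type replicate 3 was.

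Regulators of the smooth muscle programme showed small differences. Of 13 SRF and myocardin family regulators 9 had a higher and 4 a lower mean, 0 passed, and the median difference was 0.05. Srf itself was at 9.78, 10.17 and 9.97 in the knockout and at 10.22, 10.07 and 10.02 in the wild-type hearts. Its difference of -0.13 ± 0.12 was -0.03 without knockout replicate 1, -0.23 without knockout replicate 2 and -0.07 without wild-type replicate 1. Gata6, a GATA factor of heart and smooth muscle, differed by 0.22 ± 0.11, and by 0.14 without wild-type replicate 2. Klf5, the Notch target Hey2 and Foxo4 differed by 0.16, 0.16 and 0.10, and without knockout replicate 1 by 0.04, 0.06 and 0.05. Klf5 stood at 0.24 without knockout replicate 2, and Hey2 at 0.28 without knockout replicate 3 and at 0.09 without wild-type replicate 3.

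Among 20 measured genes of the other pericyte and mural cell genes, 14 had a higher and 6 a lower mean in the knockout, 0 passed, and the median difference was 0.11. 4 lay above and 2 below all wild-type hearts, beside 6.01% and 6.61% of all clusters. Notch3, the Notch receptor of mural cells, was at 8.31, 8.01 and 8.28 in the knockout and at 7.87, 7.68 and 8.04 in the wild-type hearts, a difference of 0.34 ± 0.13 (SE; limma, adjusted p = 0.797). Wild-type replicate 3 lay just above the lowest knockout heart, and the other wild-type hearts lay below all knockout hearts. The Notch target Heyl was higher in every knockout heart, at 6.999, 6.963 and 7.413 against 6.80, 6.71 and 6.94 in the wild-type hearts, by 0.31 ± 0.14, and by 0.16 without knockout replicate 3. Ndufa4l2, a hypoxia-induced mitochondrial gene used as a pericyte marker, differed by 0.48 ± 0.22, and by 0.23 without knockout replicate 1. Angpt1 was lower in every knockout heart, at 8.74, 8.81 and 8.94 against 9.04, 9.09 and 9.02 in the wild-type hearts, by -0.22 ± 0.09.

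The signals that recruit mural cells held the ligand of PDGFRβ. Of 14 measured genes of PDGF ligands and other recruitment signals 8 had a higher and 6 a lower mean, 0 passed, and the median difference was 0.07. In the knockout 2 lay above and 0 below all wild-type hearts, beside 6.01% and 6.61% of all clusters. Pdgfb was at 8.24, 8.24 and 8.02 in the knockout and at 8.02, 7.79 and 7.86 in the wild-type hearts, a difference of 0.28 ± 0.10 (SE; limma, adjusted p = 0.797). Knockout replicate 3 and wild-type replicate 1 met at 8.02. Pdgfrb and Pdgfb thus did not share their highest heart, which was knockout replicate 3 for the receptor. Tgfb3, a TGF-β ligand of the cushions, was higher by 0.43 ± 0.15 with overlap. Edn1, the gene of endothelin 1, and Tgfb1 were higher in every knockout heart, by 0.41 ± 0.19 and 0.30 ± 0.16, and by 0.19 and 0.12 without knockout replicate 1.

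**Figure D4:**
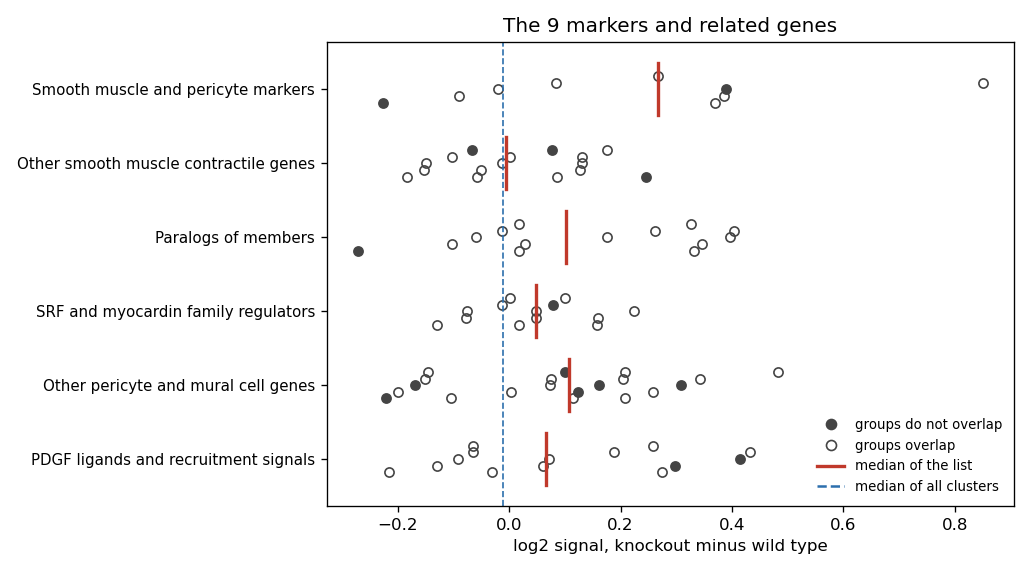
Knockout minus wild-type differences (log2) of the 9 markers and of the 5 lists of related genes, with filled points for genes whose groups do not overlap, a red bar for the median of each list and a dashed blue line for the median of all clusters. The other contractile genes centre on the line for all clusters at -0.01, and the pericyte and mural cell genes have their median at 0.11.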

How the data were processed

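The deposited values are log2 signals that the authors made with RMA (robust multi-array average), per the submitters' processing notes. The RMA version and the filters applied, if any, were not stated. Total RNA was extracted with Trizol, biotin-labelled and hybridised to Affymetrix Mouse Gene 1.0 ST arrays, per the labels and the series' design text. The distributions of the deposited values were close but not identical, with array medians between 6.65 and 6.71 and lower quartiles between 5.11 and 5.23. Replicates are called biological in the design text, and p-values measure only the spread between these samples.

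A platform annotation gave 1 symbol for 21776 clusters, and 21686 of these matched mouse genes of GRCm38.p6 by Entrez identifier. The cluster with the highest mean stood for a gene with several. limma (version 3.58.1, R 4.3.3; lmFit and eBayes) was fitted to all 28767 clusters, 3 hearts against 3, two-sided, with no covariate, filter or pseudocount, and was tested on simulated data. Exact permutation tests used scipy 1.17.1. The number of arrays limits the precision, with a median standard error of 0.11.

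The markers, the lists and the alternatives were chosen with earlier results of these data known. The text names the 9 markers and Itgb1. Of each list of related genes it names the 4 with the lowest p and, whatever their p, Acta2, Notch3, Pdgfb, Pdgfra and Srf, and of each marker the 3 nearest genes in pattern, of which only the first is given for Smtn, Myocd and Cspg4. Rgs4, Higd1a, Cnn2, Cnn3, Alb, Afp, Kdm5d and Xist were chosen after their values were seen.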

Additional observations from a re-analysis of the deposited data

How the results depend on the processing

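Of 15 alternative fits, 14 called 0 clusters and the fit without knockout replicate 1 called 1, not a marker of this set, so that leaving out hearts gave 0 to 1 calls. None of the 9 markers passed in any of them. Signs turned only near 0, for Smtn to 0.01 with cyclic loess and for Cspg4 to -0.04 with array weights. With 1 heart left out Smtn ranged from -0.04 to 0.01, turning without wild-type replicate 1. Array weights gave 0.15 for Myh11, 0.12 for Tagln and 0.57 for Rgs5. The filter on dim clusters removed Higd1b. Each marker had a single cluster, so another cluster could not be tried. The labels do not state whether the replicate numbers pair the hearts. Deviations of same-numbered hearts correlated over clusters at -0.04, -0.03 and -0.06, and those of differently numbered hearts at -0.034 to 0.075. Correlations over all clusters cannot exclude a pairing that touches some genes only, so pairing stays undecided. The replicate block called 0 clusters, with Higd1b at an adjusted p of 0.693 in limma, Pdgfrb at 0.827, Rgs5 at 0.857 and Cnn1 at 0.913. The number of arrays and the dim signal of Higd1b limit these values.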
